A study of Mus musculus and Acomys cahirinus with 2 samples.

Results

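The cornified envelope and its crosslinking enzymes were followed through 10 genes: Lor, Flg, Flg2, Ivl, Tgm1, Tgm3, Casp14, Cdsn, Sbsn and Krtdap. They were chosen by name, as the rows whose symbol equals one of these names, out of 28624 symbols in the Mus list and 24509 in the Acomys list. All 10 had a symbol in Mus. In Acomys 7 had one, and Flg, Flg2 and Sbsn were not analysed there because no row carries those names.

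The samples were 1 droplet single-cell library of adult ear skin from Mus musculus and 1 from the spiny mouse Acomys cahirinus. Both are titled day 0, whereas the series text speaks of injured ears; no strain, genotype, treatment, sex or number of animals is given in the sources used here. With 1 library per species no difference has a replicate check, so no p-value is given, and every interval below is a 95% interval that covers counting error only. Species, animal, library and gene annotation cannot be told apart in any ratio between the libraries.

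The cornified envelope is the protein shell that replaces the plasma membrane of keratinocytes as they die at the skin surface. Its precursors are made in the outermost living layers and are joined by transglutaminases, calcium-dependent enzymes that form isopeptide bonds between glutamine and lysine side chains. Basal keratinocytes divide on the basement membrane, and their daughters pass through the spinous and granular layers before they cornify.

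After filtering, 6556 Mus cells and 4603 Acomys cells remained, with medians of 11771.5 and 7508 UMIs (unique molecular identifiers, counted transcripts). The 2 libraries shared 32 cell barcodes, which is 0.695% of the Acomys cells. Cells were clustered in each library without the 10 genes and without the other cornification genes described below. Classes were named from marker genes, and each name means "like" that cell type. The Mus layers held 2322 basal-like, 1621 early suprabasal-like and 400 late suprabasal-like cells, and the Acomys layers held 664, 820 and 290. A further 461 Mus and 727 Acomys cells stayed unnamed. Median UMIs per cell rose with the layer, from 10366 to 15999 to 20265.5 in Mus and from 8605.5 to 10737.5 to 19406 in Acomys. The 3 Mus late clusters had 17 to 19 of 19 late markers, and the 2 Acomys late clusters had 11 and 13 of 14. Levels below are CPM (UMI counts scaled to the same total in every class), over the 15710 symbols that both lists hold; the 3' assay counts transcript ends, so CPM was not divided by length.

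In the mouse genome (GRCm38, GENCODE positions) 4 of the genes lie within 1213 kb of chromosome 3, in the epidermal differentiation complex: Lor at chr3:92080271-92083142, Ivl at chr3:92570902-92573735, Flg2 at chr3:93197278-93221391 and Flg at chr3:93273523-93293686. Sbsn (chr7:30751471-30756134) and Krtdap (chr7:30787896-30791097) are neighbours, 31.8 kb apart. Tgm1 (chr14:55700009-55713926), Tgm3 (chr2:130012349-130050399), Casp14 (chr10:78711991-78718294) and Cdsn (chr17:35552128-35557180) lie apart. Annotated genes overlap Tgm1 and Tgm3 on the other strand, and an annotated gene overlaps Sbsn and a pseudogene Flg on the same strand, where reads cannot be told apart.

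The 250 bases before the RefSeq start site (GRCm38.p6) are shown for 6 genes that follow different courses below: the loricrin and filaggrin genes, found mostly in 1 late cluster of Mus, involucrin and keratinocyte differentiation-associated protein, which are spread over more cells, and Tgm3, which among the 10 genes was the one lower in late Mus cells. Capitals mark TGAGTCA or its reverse complement TGACTCA, the letters bound by AP-1 factors, TATAAA on the gene's strand, and in Flg and Flg2 a stretch that the pair shares. Each sequence runs 5' to 3' on the gene's strand.
Lor, chr3:92083143-92083392, minus strand: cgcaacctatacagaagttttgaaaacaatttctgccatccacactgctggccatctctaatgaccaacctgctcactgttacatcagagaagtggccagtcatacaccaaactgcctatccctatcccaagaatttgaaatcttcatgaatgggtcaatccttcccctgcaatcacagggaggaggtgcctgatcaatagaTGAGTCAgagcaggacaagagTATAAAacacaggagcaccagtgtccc
Flg, chr3:93273296-93273545, plus strand: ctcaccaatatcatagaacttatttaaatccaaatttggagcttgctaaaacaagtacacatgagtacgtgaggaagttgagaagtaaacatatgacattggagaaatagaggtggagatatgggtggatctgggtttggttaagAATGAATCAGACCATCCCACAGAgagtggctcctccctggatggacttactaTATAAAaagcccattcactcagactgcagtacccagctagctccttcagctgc
Flg2, chr3:93197023-93197272, plus strand: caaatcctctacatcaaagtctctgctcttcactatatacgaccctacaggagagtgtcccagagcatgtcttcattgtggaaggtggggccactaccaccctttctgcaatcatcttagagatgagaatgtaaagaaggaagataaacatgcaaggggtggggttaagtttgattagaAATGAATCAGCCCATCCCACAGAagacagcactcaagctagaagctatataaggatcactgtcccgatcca
Ivl, chr3:92573736-92573985, minus strand: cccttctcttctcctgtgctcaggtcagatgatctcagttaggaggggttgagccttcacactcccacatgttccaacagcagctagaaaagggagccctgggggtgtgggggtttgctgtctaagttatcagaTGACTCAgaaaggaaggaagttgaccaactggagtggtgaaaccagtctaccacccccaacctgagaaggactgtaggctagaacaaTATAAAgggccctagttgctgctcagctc
Krtdap, chr7:30787655-30787904, plus strand: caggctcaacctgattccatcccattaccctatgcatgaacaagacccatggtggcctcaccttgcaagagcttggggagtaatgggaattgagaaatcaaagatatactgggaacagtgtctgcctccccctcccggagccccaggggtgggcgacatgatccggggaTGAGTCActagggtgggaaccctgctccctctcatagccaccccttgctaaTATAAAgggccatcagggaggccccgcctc
Tgm3, chr2:130012090-130012339, plus strand: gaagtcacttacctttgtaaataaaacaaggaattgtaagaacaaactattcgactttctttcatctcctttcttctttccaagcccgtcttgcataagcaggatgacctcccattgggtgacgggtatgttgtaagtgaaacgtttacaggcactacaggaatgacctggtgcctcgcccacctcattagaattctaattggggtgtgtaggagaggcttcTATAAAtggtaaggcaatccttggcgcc

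The AP-1 letters stand 48 bases before the start of Lor, 81 before Krtdap and 116 before Ivl. They occur in these 3 of the 10 windows, against 4.46% of 32851 mouse promoter windows of the same length. TATAAA occurs in 5 of the 10, at 27 bases before the start of Lor, 28 before Tgm3, 29 before Ivl, 30 before Krtdap and 53 before Flg, against 7.59% of all windows. The grainyhead-like letters AACCNGTT, searched on both strands, occur in 0 of the 10 and in 1.79% of all windows. Flg and Flg2 share a stretch of 23 bases that differs in 1 letter, and the longest such stretch in the other 44 of 45 pairs of windows was 15 bases. These are matches of letters and carry no measurement of binding.

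Loricrin is the main protein of the mature mouse envelope. In Mus the level of Lor was 518 CPM in basal cells, 478 in early suprabasal cells and 18112 in late cells. In Acomys it was 80.9, 109 and 1677 CPM. Both libraries stepped up between early and late cells, by 37.9-fold in Mus (37.1 to 38.8) and 15.4-fold in Acomys (14.2 to 16.7). Between basal and early cells the ratio was 0.922 in Mus (0.894 to 0.951) and 1.35 in Acomys (1.17 to 1.55), both within 2-fold. In Acomys 186 of the 664 early Lor UMIs were in 1 cell, and without the cell with the most Lor in each layer the ratio was 0.980 (0.846 to 1.14). The basal and early levels lay under the level in free RNA, measured in barcodes of 1 to 10 UMIs. Free RNA held 2120 CPM of Lor in Mus and 262 in Acomys. The basal and early levels are therefore not read as expression, and the part of free RNA in them was not tested.

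Filaggrin, whose large precursor is cut into units that bundle keratin, and its relative filaggrin 2 were measured in Mus only. Flg went from 5.41 CPM in basal and 4.21 in early cells to 601 CPM in late cells, a 143-fold step (113 to 182). Flg2 went from 18.5 and 12.2 to 937 CPM, a 76.6-fold step (66.8 to 88.2). In both genes the basal and early levels were under free RNA, at 55.2 and 71.2 CPM.

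Involucrin is an early scaffold of the envelope, laid down beneath the membrane. In Mus Ivl stood at 25.2, 35.3 and 564 CPM from basal to early to late cells. In Acomys it stood at 12.4, 52.0 and 316 CPM. The step from early to late was 16.0-fold in Mus (14.6 to 17.4) and 6.09-fold in Acomys (5.37 to 6.91). The basal to early ratio was 1.40 in Mus (1.23 to 1.59) and 4.18 in Acomys (3.05 to 5.85). Free RNA held 77.3 and 61.9 CPM of Ivl, above the level of the early class in each library. The 2 early Acomys clusters differed, at 19.8 CPM in 442 cells and 81.9 CPM in 378 cells. The second was above free RNA but inside its interval of 45.5 to 82.3 CPM.

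Corneodesmosin is the glycoprotein that holds attached cornified cells together at the corneodesmosomes, and its breakdown precedes their shedding. Cdsn was at 24.5, 20.7 and 1068 CPM over the 3 Mus layers and at 94.7, 85.5 and 2227 CPM over the 3 Acomys layers. The late step was 51.7-fold in Mus (46.5 to 57.6) and 26.0-fold in Acomys (23.8 to 28.5). Basal and early cells of both libraries were under free RNA, at 115 and 244 CPM.

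Suprabasin and keratinocyte differentiation-associated protein are secreted proteins of the suprabasal epidermis. As levels of the whole class, both were above free RNA in early cells already. Sbsn was at 508, 4007 and 16786 CPM in Mus, a 7.88-fold step from basal to early (7.70 to 8.07) and a 4.19-fold step from early to late (4.15 to 4.23). Krtdap was at 6279, 28536 and 53813 CPM in Mus and at 13862, 50441 and 68773 CPM in Acomys. Its first step was 4.54-fold in Mus and 3.64-fold in Acomys, and its second, at 1.89-fold and 1.36-fold, stayed under 2-fold. Free RNA held 2609 CPM of Sbsn in Mus and 13008 and 18268 CPM of Krtdap in Mus and Acomys, all above the basal levels. The Sbsn UMIs of the early Mus clusters were uneven, with 25858 in 623 cells, 41395 in 427 and 3141 in 571. In the cluster of 571 cells the level of Sbsn was under free RNA.

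Caspase-14 is the keratinocyte protease that takes part in the breakdown of filaggrin. In Mus the larger step of Casp14 was the first, with 12.8 CPM in basal, 49.9 in early and 81.5 in late cells. The basal to early ratio was 3.91 (3.34 to 4.58) and the early to late ratio 1.63 (1.45 to 1.83). In Acomys the order of the sizes was turned around, with 4.97, 12.3 and 98.3 CPM and ratios of 2.48 (1.47 to 4.41) and 7.97 (6.21 to 10.3). The Acomys late cluster of 137 cells held 89.9% of the late Casp14 UMIs. Without it the late level was 20.5 CPM, so the turned order rests on that cluster. The basal Acomys level came from 18 UMIs. Early Mus cells were above free RNA, at 24.6 CPM, and early Acomys cells were under it, at 15.8 CPM.

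Transglutaminase 1 is the membrane-anchored enzyme that attaches precursors to the cell border. Tgm1 was at 3.78, 6.38 and 142 CPM in Mus and at 10.8, 12.7 and 217 CPM in Acomys. The late step was 22.2-fold (18.2 to 27.3) and 17.2-fold (13.6 to 22.0). Basal and early levels were under free RNA, at 13.5 and 39.5 CPM.

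Transglutaminase 3 is a soluble enzyme of the epidermis and hair follicle that needs proteolysis to become active. Tgm3 was at 97.2 CPM in basal, 67.2 in early and 23.3 in late Mus cells. The late to early ratio was 0.347 (0.287 to 0.416), the only drop past 2-fold among the 10 genes. That drop no longer passed in 4 of the other processings, among them a lower UMI minimum and clustering with all genes. Free RNA of Mus held 60.2 CPM of Tgm3 (44.5 to 79.5). The basal level was above that interval, the early level inside it and the late level under it. In Acomys Tgm3 was listed with 42 UMIs over all cells and was at 1.38, 1.97 and 2.04 CPM, under the 10 CPM needed for a call.

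**Figure D1:**
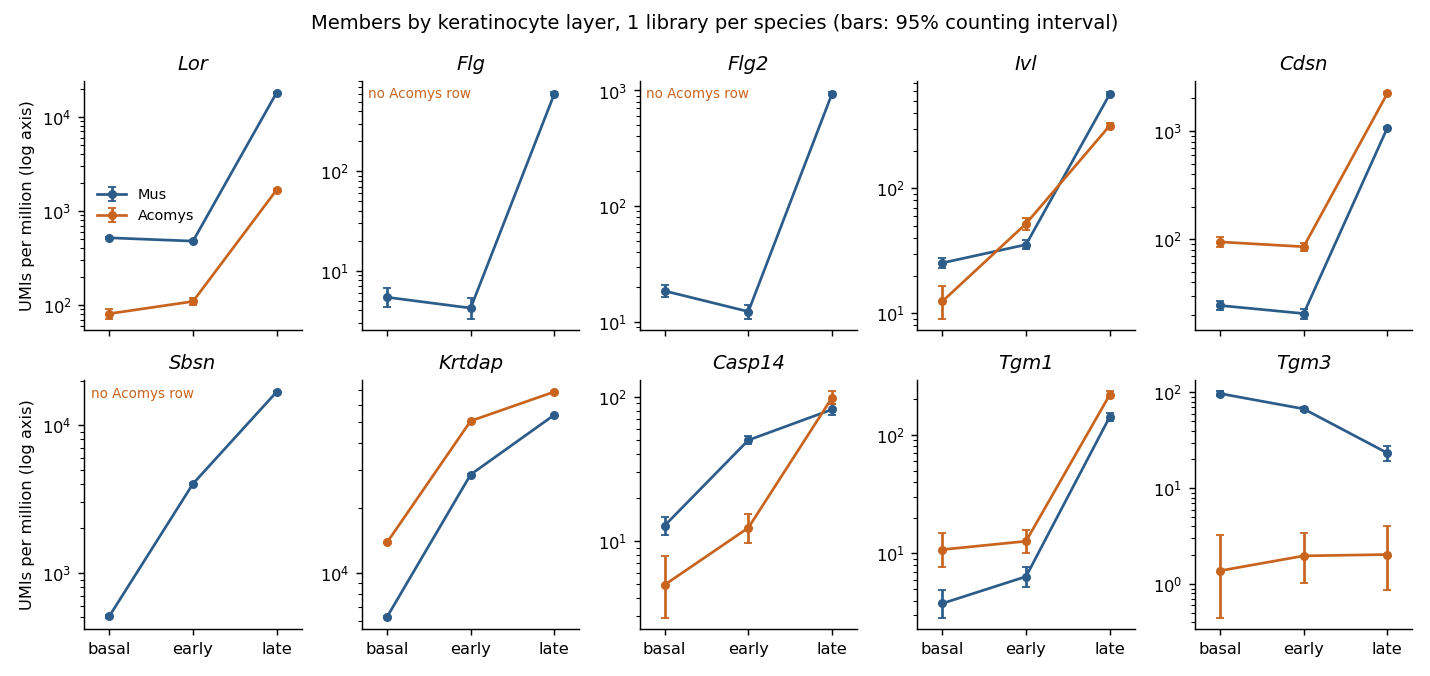
Level of each gene (CPM, log axis) in basal, early suprabasal and late suprabasal cells of the Mus and Acomys libraries; points are summed UMI counts and bars are 95% counting intervals. Lor rises from 478 to 18112 CPM between early and late Mus cells, Sbsn and Krtdap climb over both steps, and Mus Tgm3 falls from 97.2 to 23.3 CPM.

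A gene was called higher or lower between layers at 2-fold or more with a counting interval that excludes 1, among genes of at least 10 CPM in 1 of the 2 layers. From basal to early cells 3 of 8 members were higher in Mus (Casp14, Sbsn and Krtdap), where 4.14% of 8160 genes were. In Acomys 3 of 6 were higher (Ivl, Casp14 and Krtdap), where 4.54% of 6496 genes were. There were 0 lower members, against 9.17% of genes in Mus and 12.8% in Acomys. From early to late cells 7 of 10 members were higher in Mus, against 10.5% of 7764 genes, and 5 of 6 in Acomys, against 7.49% of 5982 genes. In that step 1 member was lower in Mus, where 20.9% of genes were, and 0 in Acomys, where 19.4% of genes were. The median log2 ratio of late over early was 4.23 for the members and -0.35 for all genes in Mus, and 3.46 and -0.42 in Acomys. For early over basal it was 0.18 against -0.23 in Mus and 0.86 against -0.29 in Acomys.

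The late class was uneven inside. In Mus it held 3 clusters of 195, 140 and 65 cells, and the smallest, 0.991% of all cells, carried 94.5% of the late Lor UMIs and 75.4% of all Lor UMIs in cells. The same 65 cells carried 96.7% of the late Flg and 88.3% of the late Flg2. They held 38.2% of the late Cdsn, 39.0% of the Tgm1 and 6.59% of the Ivl. Their median depth was 19808 UMIs, against 19871 and 21233 in the other late clusters. Their leading genes, beside Lor and Flg2, were Wfdc21, Hrnr, Cnfn, Serpina12, Asprv1, Slurp1, Nccrp1 and Csta1.

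Lor was at 100307 CPM in the cluster of 65 cells, at 1756 in the cluster of 195 and at 445 in the cluster of 140. Flg followed the same order at 3408, 39.5 and 3.1 CPM. Flg2 did so at 4853, 218 and 12.9 CPM. Involucrin took another order, with 951 CPM in the cluster of 195 cells against 218 in the cluster of 65 and 202 in the cluster of 140. Cdsn was high in both the cluster of 65 (2395 CPM) and that of 195 (1346 CPM) and low in the third, at 36.8 CPM. The level of keratin 10, a keratin of the suprabasal layers, was 16743 CPM in the cluster of 65 and 101311 and 89812 CPM in the others. In Acomys the cluster of 137 late cells held 97.7% of the late Lor and 98.4% of the late Cdsn, at 3181 and 4256 CPM, against 79.3 and 72.5 CPM in the cluster of 153. That cluster also had more Ivl (466 against 157 CPM), Tgm1 (358 against 67.7) and Casp14 (172 against 20.5). Krtdap did not separate the Acomys clusters, at 69314 and 68198 CPM.

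**Figure D2:**
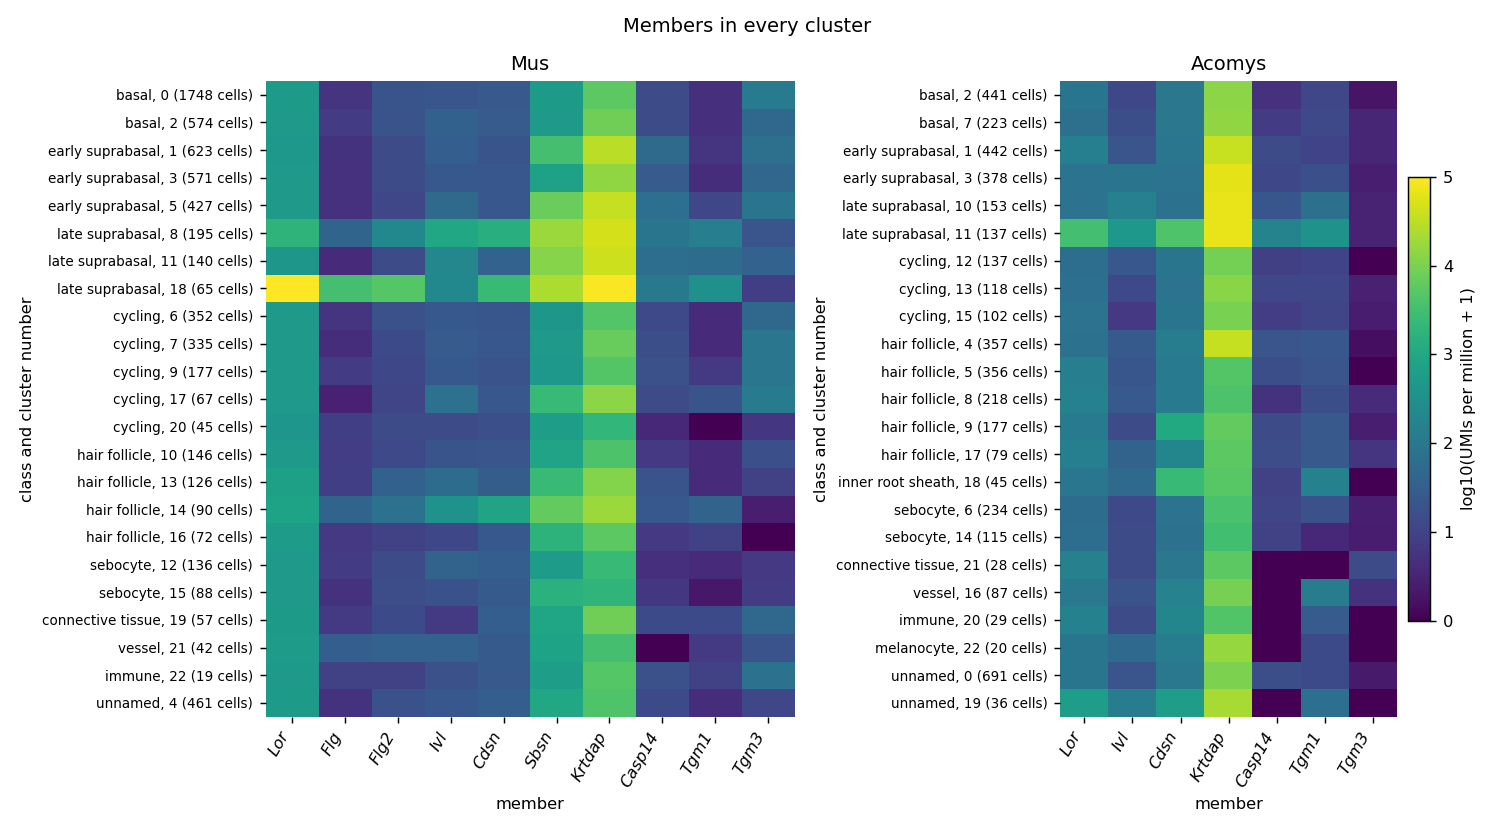
Level of each member (columns) in every cluster (rows, with class, cluster number and cells) of the Mus and Acomys libraries, as colour on a scale of log10(CPM + 1). The Mus late clusters 8, 11 and 18 are those of 195, 140 and 65 cells, and the Acomys late clusters 10 and 11 those of 153 and 137; Lor, Flg and Flg2 are brightest in Mus cluster 18, at 100307, 3408 and 4853 CPM, whereas Ivl is brightest in Mus cluster 8, at 951 CPM.

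Without the cluster of 65 cells, a comparison added after seeing the data, the same 7 members stayed past 2-fold from early to late in Mus. The log2 ratio of Lor then was 1.33, that of Flg 2.52 and that of Flg2 3.43. The remaining late level of Lor, 1204 CPM, was under free RNA, as was that of Flg, 24.2 CPM, whereas that of Flg2, 132 CPM, was above it. That of Lor was still above the 423 to 779 CPM of the Mus clusters outside the late class. In the cluster of 195 cells, 20 cells held 63.9% of the Lor UMIs. The log2 ratios of Ivl (4.17), Tgm1 (4.02) and Cdsn (5.27) stayed above 4, and those of Sbsn, Krtdap and Casp14 were 1.93, 0.68 and 0.62. The late steps of Acomys rest more on its cluster of 137: without it 2 of the 5 called members, Ivl and Tgm1, stayed past 2-fold. The log2 ratio of late over early was then -0.46 for Lor, -0.24 for Cdsn and 0.74 for Casp14. The remaining late Acomys levels of Lor and Cdsn, 79.3 and 72.5 CPM, were under free RNA, at 262 and 244 CPM.

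Single late cells showed the same concentration. The share of a late Mus cell's UMIs on Lor ran from 0% to 19.3%, with a median of 0.0376%, and in the cluster of 65 the median was 5.06%. The highest cell held 6150 Lor UMIs. At least 1% of UMIs lay on Lor in 69 Mus cells, 68 of them late, and in 13 Acomys cells, 12 of them late. The tenth of late cells with the most UMIs of a gene held 83.8% of the Lor UMIs in Mus (40 cells) and 86.7% in Acomys (29 cells). It held 99.3% of the Flg, 40.9% of the Mus Ivl, 37.0% of the Acomys Ivl and 22.2% of the Sbsn.

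Across the 400 late Mus cells the Pearson correlation of log levels was 0.92 between Lor and Flg2 and -0.15 between Lor and Ivl. Across the 290 late Acomys cells Lor and Ivl had an r of 0.57. For Lor and Cdsn r was 0.62 in Mus and 0.77 in Acomys, for Lor and Casp14 0.16 and 0.76, and for Ivl and Tgm1 0.10 and 0.56. Cells of 1 library share its free RNA and differ in depth, so these values describe the libraries.

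**Figure D3:**
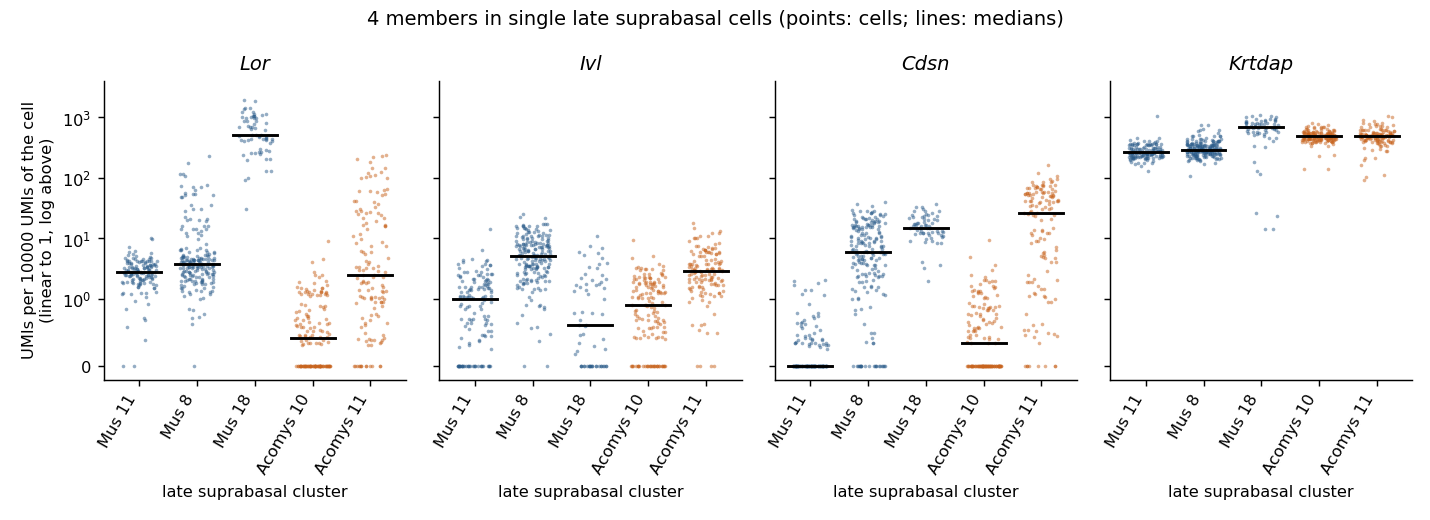
Lor, Ivl, Cdsn and Krtdap in single late suprabasal cells, as UMIs per 10000 UMIs of the cell (axis linear to 1, log above), by late cluster; each point is 1 cell and each line the cluster's median. Cells of Mus cluster 18 stand above the other clusters for Lor, where their median is 5.06% of UMIs, but not for Ivl, which is highest in Mus cluster 8; Krtdap is at a like level in both Acomys clusters.

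Cells of the 3 layers were also ordered by a score of layer markers that holds none of the members, and cut into 10 ranges of equal cell number. In Mus Krtdap and Casp14 first reached 50% of their highest range in range 8, Tgm3 in range 1, and the other 7 genes in range 10. Of these, Flg was already at 49.3% and Sbsn at 42.0% in range 9. There Lor, Flg2, Ivl, Tgm1 and Cdsn were at 4.24% to 14.4%. In Acomys Krtdap first reached 50% in range 5, and Lor, Ivl, Tgm1, Casp14 and Cdsn in range 10. Of the 65 Lor-rich Mus cells, 59 fell in range 10 and 3 each in ranges 8 and 9.

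**Figure D4:**
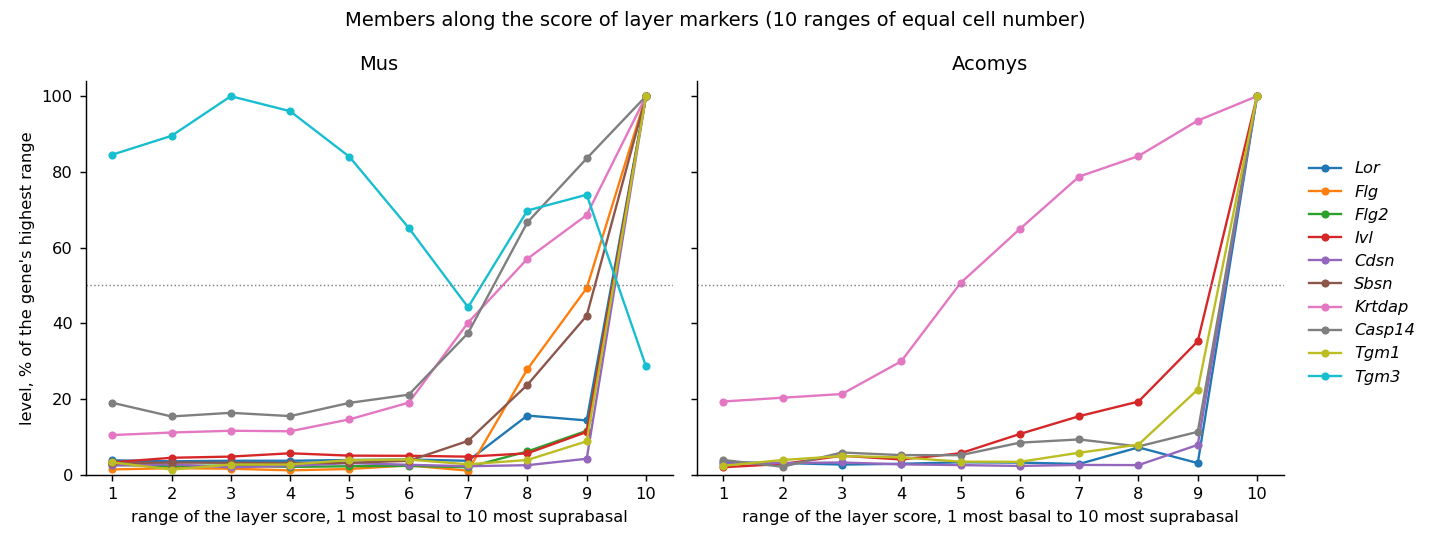
Level of each gene as percent of its highest range, over 10 ranges of equal cell number ordered by the layer-marker score (range 1 most basal, range 10 latest), for both libraries. Krtdap and Casp14 reach 50% in range 8 in Mus, and Krtdap does so in range 5 in Acomys. Mus Tgm3 is already at that level in range 1. Acomys Tgm3 is not drawn because it has 5, 12 and 8 UMIs in basal, early and late cells.

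To compare shares of cells at equal depth, every cell was thinned to 2500 UMIs; no cell was shallower. Lor UMIs then stood in 51.6% of basal, 51.6% of early and 67.0% of late Mus cells, and in 54.8% of the 42 vessel-like cells, which should lack loricrin. The basal and early shares did not exceed the vessel share, so they are not read as expression of Lor. The part of free RNA in them was not tested. In Acomys the shares were 12.5%, 13.3% and 31.0%, with 14.9% in vessel-like cells. Unthinned, Lor was seen in 94.1% of basal and 99.2% of late Mus cells. Ivl stood in 46.2% of late Mus cells (41.3 to 51.3; unthinned 86.2%) and 40.3% of late Acomys cells (34.7 to 46.2; unthinned 87.2%), against 4.76% and 4.60% of vessel-like cells. Cdsn stood in 51.7% of late Mus cells and 0% of vessel-like cells, and in 42.8% and 24.1% in Acomys. The unthinned late shares of Cdsn were 72.0% and 71.4%. Flg stood in 8.50% of late Mus cells (unthinned 15.8%) and 2.38% of vessel-like cells. Tgm1 stood in 19.5% of late Mus cells (unthinned 68.5%) and Casp14 in 10.8%, with 0 of 42 vessel-like cells for each.

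Outside the layers Krtdap exceeded free RNA in an upper follicle-like cluster of each library. The Acomys follicle class had 19032 CPM, and its upper follicle-like cluster of 357 cells had 36115 CPM, with 5.94% of the UMIs in 5 cells. That cluster held 70535 of the 82312 Krtdap UMIs of the class. In Mus an upper follicle-like cluster of 90 cells had 17972 CPM, whereas the whole follicle class had 10179 CPM, under free RNA. In sebocyte-like cells, the lipid-filled cells of the sebaceous gland, Krtdap was at 2114 CPM in Mus and 3407 in Acomys, and Cdsn at 27.8 and 76.5 CPM. In cycling cells Ivl was at 30.8 and 13.4 CPM and Casp14 at 13.3 and 8.80. In connective tissue-like cells of Acomys Cdsn was at 94.7 CPM, and in immune-like cells of Mus and Acomys at 24.4 and 197 CPM. All these values lie under the free RNA of the same library. Follicle-like Mus cells had Sbsn at 2896 CPM, above the 2609 of free RNA, and Ivl at 115 CPM.

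Outside the late class, Lor varied little among Mus clusters, from 423 to 779 CPM over 20 clusters, with a median that was 23.4% of the free RNA level. In Acomys it ran from 58.6 to 593 CPM over 21 clusters, the highest in an unnamed cluster of 36 cells that held 9 Lor UMIs. Cdsn also had levels above free RNA outside the layers. In Mus it was at 847 CPM in an upper follicle-like cluster of 90 cells, with 518 UMIs of which 42.9% were in 5 cells. That cluster also had Ivl at 347 CPM, Sbsn at 6395 and Tgm1 at 37.6, and it held 9 of the 19 late markers beside the follicle genes Krt79, Defb6 and Cst6. Its Flg2, 76.9 CPM, came from 47 UMIs of which 89.4% were in 5 cells. The part of late cells in these values was not tested.

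In Acomys the inner root sheath-like cells, 45 in number, had Cdsn at 2433 CPM, close to the 2227 CPM of late cells. Of their 602 Cdsn UMIs, 74.1% were in 5 cells, although 46.7% of the thinned cells held a Cdsn UMI. Their Tgm1 was at 158 CPM from 39 UMIs. An Acomys follicle-like cluster of 177 cells had Cdsn at 1068 CPM, with 64.7% of its 662 UMIs in 5 cells and 195 in 1 cell. These values rest on few cells.

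Tgm1 was also present in the 87 vessel-like Acomys cells at 125 CPM (83.1 to 181), with 28 UMIs and at most 3 in a cell, and in 18.4% of them after thinning (10.9 to 28.1). The basal level in that library was 10.8 CPM, and free RNA held 39.5 CPM. The same class in Mus had 1 UMI in 42 cells, 6.13 CPM, and a share of 0% after thinning. The vessel-like Acomys cells had the endothelial genes Emcn at 1126 CPM and Pecam1 at 214 CPM, and Krt10 at 12334 CPM.

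Tgm3 in Mus ranged from 0 to 119 CPM over the 20 clusters outside the late class, highest in the larger basal cluster (119 CPM) and at 45.2 in the other basal cluster. It was at 7.68 CPM in follicle-like cells, 48.1 in connective tissue-like cells and 73.3 in immune-like cells, with 60.2 CPM in free RNA.

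**Figure D5:**
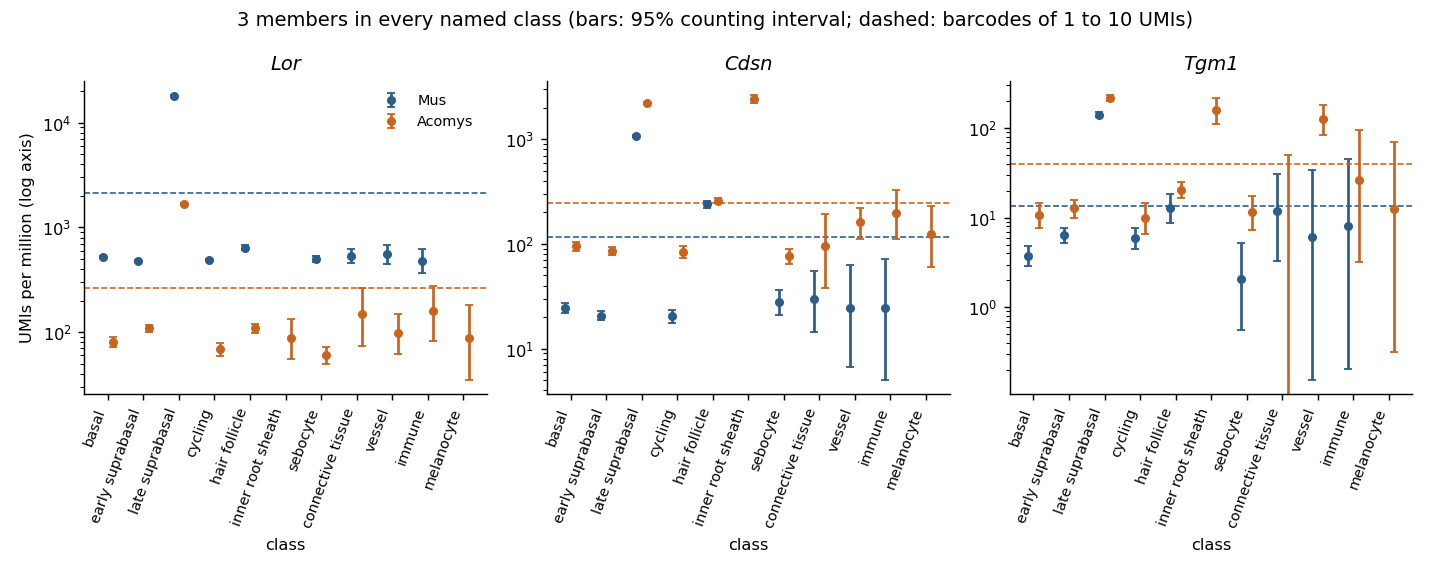
Level of Lor, Cdsn and Tgm1 (CPM, log axis) in every named class of both libraries, with 95% counting intervals; the dashed line is the level in free RNA. Lor exceeds the free RNA line in late suprabasal cells, Cdsn also in follicle-like cells and in Acomys inner root sheath-like cells (2433 CPM), and Tgm1 among others in Acomys vessel-like cells (125 CPM).

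Between the species, members were set side by side for the 7 genes with a symbol in both lists. In late cells Lor was 10.8-fold higher in Mus, at 18112 against 1677 CPM. Tgm3 was 11.4-fold higher in Mus, and Cdsn was 2.08-fold higher in Acomys (2.02 to 2.16). The late Mus level of Tgm3, 23.3 CPM, was under free RNA, at 60.2 CPM. Its late Acomys level, 2.04 CPM from 8 UMIs, was under the upper limit of free RNA, 4.86 CPM. The late ratio of Tgm3 is therefore not read as a difference in expression. Ivl, Tgm1, Casp14 and Krtdap were within 2-fold. So 1 of 7 members was higher in Acomys, where 15.4% of 6234 genes were, and 2 of 7 lower, where 41.2% were. The late ratios move with the Lor-rich clusters that are kept, which were picked by the level of Lor itself. The log2 ratio of Acomys over Mus for Lor was -3.43 with all late cells and -3.92 without the Lor-rich cluster of each library. The latter compares 1204 CPM in Mus and 79.3 CPM in Acomys, both under free RNA, at 2120 and 262 CPM. Lor was also higher in Mus outside the layers, 5.67-fold in vessel-like, 5.88-fold in follicle-like and 8.26-fold in sebocyte-like cells. The late log2 ratio of Lor was 0.48 when only the Mus cluster of 65 was left out and its Acomys counterpart of 137 was kept. That one-sided removal lowers Mus by its construction. Between these clusters Lor stood at 100307 CPM in Mus and 3181 in Acomys. For Cdsn the log2 ratio was 1.06 with all late cells, 1.49 without the Mus cluster and -3.45 without both clusters. The sign of that ratio thus depends on which late cells are kept. Without both clusters Cdsn was at 795 CPM in Mus, above free RNA at 115 CPM. In Acomys it was then at 72.5 CPM, under free RNA at 244 CPM.

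In early cells 1 of 7 members was higher in Acomys (Cdsn, 4.14-fold), where 14.1% of 6859 genes were, and 3 were lower (Lor, Tgm3 and Casp14), where 39.0% were. In basal cells 3 were higher (Tgm1, Cdsn and Krtdap), where 15.1% of 7451 genes were, and 4 were lower (Lor, Ivl, Tgm3 and Casp14), where 37.8% were. As levels of the whole class, Mus Tgm3 in both layers and Mus Krtdap and Casp14 in early cells were above free RNA. In Acomys Krtdap in early cells was. The early Mus level of Tgm3, 67.2 CPM, lay within the interval of free RNA, 44.5 to 79.5 CPM. Free RNA of Acomys held 0 Tgm3 UMIs, with an upper limit of 4.86 CPM. The Acomys levels of Tgm3, 1.38 CPM in basal and 1.97 in early cells, were under that limit. The other ratios compare levels under free RNA, whose part in them was not measured, and are not read as differences in expression. The count of 1 in early cells became 2 to 4 under 6 of the other processings.

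Other cornification genes were counted by role in the same way. Over all genes 10.5% were higher and 20.9% lower from early to late cells in Mus, and 7.49% and 19.4% in Acomys. Of the other envelope precursors and linkers, 22 of 26 measured at 10 CPM or more were higher in late Mus cells and 1 was lower, with a median log2 ratio of 5.49. In Acomys 6 of 8 were higher and 1 was lower. The late levels of Crct1, Cnfn and Hrnr, a cysteine-rich protein, cornifelin and hornerin, were 2286, 1744 and 1513 CPM in Mus, which is 44.0-fold, 46.2-fold and 64.5-fold above early cells. Cnfn was at 3293 CPM in Acomys, 6.09-fold above early cells. Sprr1a, a small proline-rich crosslinking protein, was the lower gene in Mus, at 22.4 against 53.4 CPM, and was higher in late Acomys cells at 1540 against 283 CPM. The lower gene in Acomys was Lce1m. Lce1 and Sprr2 genes have near-identical copies whose counts can be split between them.

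Of the other transglutaminases and processing enzymes, 7 of 11 were higher and 0 lower in late Mus cells, and 6 of 9 were higher and 1 (Capn1) lower in Acomys. Elovl1, a fatty acid elongase, was at 981 CPM in late Mus cells, 5.28-fold above early cells, and Blmh, a hydrolase that takes part in filaggrin breakdown, at 720 CPM, 4.24-fold above. Sult2b1, the cholesterol sulfotransferase, was at 608 CPM, 2.21-fold above early cells. Tgm5, a transglutaminase of the epidermis picked after its values were seen, was 4.79-fold higher in late than in early Mus cells (3.74 to 6.15) and 2.83-fold higher in Acomys (2.09 to 3.85).

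Of the transcription factors of terminal differentiation, 3 of 16 were higher and 2 (Maf and Tfap2a) lower in late Mus cells, and 6 of 12 were higher and 1 (Nfe2l2) lower in Acomys. The Mus counts of the factors are near the shares over all genes, 10.5% higher and 20.9% lower. Klf4, a zinc finger factor of barrier formation, was at 1146 CPM in late Mus cells, 1.28-fold the early level, and Hopx and Cebpa were at 414 and 383 CPM, 1.88-fold and 1.37-fold. From basal to early cells 5 of 22 precursors, 2 of 10 enzymes and 7 of 15 factors were higher in Mus, and 4 of 7, 4 of 8 and 3 of 10 in Acomys, with 0 lower. Over all genes 4.14% were higher and 9.17% lower in Mus, and 4.54% and 12.8% in Acomys.

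The genes most like the members over the 23 clusters of each library, by the lower of the 2 Pearson correlations with the members' mean pattern, were Klk5 (0.90), Cysrt1 (0.89), Ctnnbip1 (0.87), 2310050C09Rik (0.85), Tmem40 (0.85), Cnfn (0.85), Rab11a (0.83) and Cldn23 (0.83). Klk5 is a kallikrein protease of the granular layer and Cldn23 a claudin. Klk5 was also among the late markers that named the classes.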

How the data were processed

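Ear skin of both species was measured with a droplet 3' single-cell assay, and the deposited files hold UMI counts per gene and barcode, not normalized. Per the submitters' processing notes the authors used Cell Ranger 2.2.0 with mm10; the identifiers of the Acomys list come from an Acomys annotation, and its genome build was not given in the sources used here. The count matrices list 737280 barcodes and 130039670 (Mus) and 71042559 (Acomys) UMIs. The members and lists were chosen with earlier results of these data known, and the rule that names clusters was chosen after seeing the data.

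Cells had at least 1 part in 10 of the 99th percentile of the top 3000 barcodes' UMIs (4695 in Mus, 2872 in Acomys), 200 genes and at most 20% mitochondrial UMIs (Mus only; the Acomys list names no such gene). Barcodes scored as doublets were removed, 386 and 183. Clusters came from 2000 variable genes, 30 components, 20 neighbours and Leiden resolution 1. A class needed 3 fixed markers, each in 20% of cells and 1.5-fold up. The 10 members and the genes of the lists by role were left out of the clustering. Other named genes, among them the layer markers Krt10 and Klk5, were not left out. The 7 Mus rows with the symbol Flg were summed; 1 row held 3594 of the 3597 UMIs in cells. Shared symbols held 62.1% (Mus) and 66.8% (Acomys) of cell UMIs.

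UMIs were summed per class and divided by the total of the shared symbols. Intervals are exact Poisson, conditional binomial or Clopper-Pearson, at 95%. A prior of 0.5 was added to both counts in every log2 ratio. Correlations over late cells used log levels per 10000 UMIs. Named genes were all members, the 8 most alike genes with at least 50 CPM in a cluster of each library (log2 of CPM plus 10), and the 3 genes of each list with the highest late level. The ratio and call steps were tested on simulated data. Alternatives changed the UMI minimum, doublet removal, resolution, genes clustered, denominator, filter, thinning, free RNA subtraction, averaging over cells and centring. Python 3.11.15, numpy 2.4.6, scipy 1.17.1, scikit-learn 1.9.0 and leidenalg 0.10.2 were used. There were 0 value columns of unknown sample.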

Additional observations from a re-analysis of the deposited data

Results flagged for a closer look

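The early over basal log2 ratio of Lor was -0.12 in Mus and 0.43 in Acomys, a difference of 0.55. The difference was not tested. It rests on 1 early Acomys cell that held 186 of the 664 Lor UMIs: without the cell with the most Lor in each layer the log2 ratio was -0.11 in Mus and -0.03 in Acomys. In both libraries the levels of Lor in both layers were under that of free RNA.

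Among barcodes of 500 UMIs up to the cell minimum, which no comparison used, 111 of 8983 in Mus and 7 of 8202 in Acomys had at least 1% of their UMIs on Lor. The highest shares were 16.8% in Mus and 3.85% in Acomys.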

How the results depend on the processing

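Of 188 alternative values of the member counts, 165 stayed within 1.5 times the value given. The count of members higher from early to late or from basal to early stayed within 1.5 times under the alternatives run, with 1 exception: the 5 Acomys members higher in late cells became 2 without the Lor-rich late cluster of both libraries (65 Mus and 137 Acomys cells). That setting also turned the 1 late member higher in Acomys into 0 and the 2 lower into 5. It and the removal of the cell with the most UMIs of a gene in each layer, which kept every count, were added after seeing the data, as was the removal of the Lor-rich Mus cluster alone. The 1 Mus member lower in late than in early cells (Tgm3) became 0 with a minimum of 1000 UMIs, no doublet removal, Leiden resolution 2 or clustering with all genes. The 0 Mus members lower in early than in basal cells became 1 with no doublet removal, clustering with all genes or free RNA subtracted. The 1 member higher in early Acomys cells became 3 with a minimum of 1000 UMIs, no doublet removal or clustering with all genes, 4 at resolution 0.5, and 2 at resolution 2 or as a mean over cells. The 1 member higher in late Acomys cells became 2 with a minimum of 1000 UMIs or without the Lor-rich cluster, 3 at resolution 0.5 and 0 as a mean over cells, where calls use the fold alone. The 4 members lower in basal Acomys cells became 2 at resolution 2, with unnamed clusters in the nearest layer or with CPM over all genes. The cause of these changes was not tested.

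Of 735 alternative log2 ratios of single genes, 682 kept their call, 32 passed it newly, 17 lost it and 4 reversed. Lor in late cells, Acomys over Mus, was 0.48 without the Lor-rich Mus cluster alone, which follows from a removal on 1 side, and -3.92 without that of both libraries. Without both, Lor and Cdsn from early to late in Acomys were -0.46 and -0.24, and Cdsn in late cells, Acomys over Mus, was -3.45. The late Acomys levels of Lor and Cdsn were then under free RNA. Without thinning 45 of 51 shares moved. Centring shifted ratios between the libraries by 0.12, 0.08 and 0.02 on the log2 scale in basal, early and late cells and changed no call. Flg from basal to early with free RNA subtracted could not be given, because no count was left. No paired analysis was possible because each species has 1 library. Free RNA limits what can be read at low levels.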
